A study of Caenorhabditis elegans with 12 samples.

Results

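Worms without a germline were compared at 2 adult ages: the 3 libraries of glp-1 animals at day 6 of adulthood (D6) were set against the 3 of glp-1 animals at day 1 (D1), which are 6 of the 12 libraries of the study. Every gene with at least 1 FPKM in at least 3 of these 6 libraries was described, which kept 11599 of the 20257 genes listed. FPKM, fragments per kilobase of transcript and per unit of mapped fragments, is a level corrected for length and depth. The study measured transcripts of whole Caenorhabditis elegans by RNA sequencing, and its title concerns intermediate filaments and lifespan. The glp-1 D6 and glp-1 D1 animals both carried the allele e2141, were raised to D1 at 25 °C and fed OP50 bacteria, and differed in age. WT D6 and WT D1 animals (strain N2), 3 libraries each, had the same history and serve here only to compare the change with age. The design text holds D6 animals at 20 °C after D1, whereas by the sample labels replicates 1, 2 and 3 of each genotype were at 20, 21 and 22 °C. Age and the shift in temperature cannot be told apart. Whether replicates were grown as separate cultures is not stated in the labels, and every p-value rests on the spread among 3 libraries, part or all of which may be technical.

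GLP-1 is a Notch receptor that keeps the germline stem cells dividing, and e2141 is a temperature-sensitive allele, so animals raised at the high temperature make almost no germ cells. Germline-less worms live long, and in them DAF-16 and steroid signalling act in the intestine, the main organ for fat storage, yolk and defence. A whole worm without germ cells is mostly intestine, epidermis, muscle, neurons and somatic gonad, and each library mixes them all.

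The 6 libraries held an estimated 16700000 to 20000000 fragments, judged from the smallest steps in their FPKM. At least 1 FPKM was reached by 11479 to 11794 genes in the D6 libraries and by 11100 to 11110 genes in the D1 libraries. The rank correlation between libraries was 0.967 to 0.972 within D6, 0.973 to 0.974 within D1 and 0.942 to 0.948 between the ages. FPKM are relative to the mapped fragments of each library, so a change in a few abundant genes can shift the others, and 2 rescalings were used beside the deposited values: to the median ratio over genes, and to body wall muscle and neuronal genes. Values per library are given below in the order of replicates 1, 2 and 3. Fold changes are on the log2(FPKM + 1) scale, D6 over D1, a scale that shrinks the changes of weakly expressed genes. A gene was called at an adjusted p under 0.05 in limma's moderated test over all 11599 genes (Benjamini-Hochberg, two-sided), and "rose" or "fell" is written only of called genes.

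The mutated gene checks the labels only in part, since e2141 changes the protein. glp-1 (chromosome III, 9092241 to 9099698, plus strand) had 6.15, 5.44 and 6.69 FPKM in glp-1 D6 libraries, against 3.37, 3.21 and 3.39 FPKM in glp-1 D1 libraries. All D6 libraries lay above all D1 libraries (log2 fold change 0.71, SE 0.12, adjusted p = 0.000729), and all 6 lay far below the wild-type means of 97.9 FPKM at D6 and 66.7 FPKM at D1. Germline RNA was followed in a set of germline-dependent genes. These were the 1171 genes with a wild-type D1 mean of at least 5 FPKM and a glp-1 D1 mean under 5% of it, so the low D1 share was set by that choice and carries no test. The rule also took in some cuticle genes, such as dpy-17, dpy-10 and col-121, so the set is not a measure of germline RNA alone. As a median over these genes, the D6 libraries held 1.57%, 0.392% and 1.29% of the wild-type D6 mean, and the D1 libraries held 0.344%, 0.322% and 0.345% of the wild-type D1 mean. Replicate 2 at D6 was close to the D1 libraries, and replicates 1 and 3 were higher. At least 1 FPKM was reached by 520, 287 and 487 of the 1171 genes in the D6 libraries, against 230, 216 and 221 in the D1 libraries. Together they took 0.38%, 0.229% and 0.328% of all FPKM at D6 and 0.132%, 0.131% and 0.129% at D1. Fewer cells of a type and less RNA per cell cannot be told apart in whole-animal RNA.

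**Figure D1:**
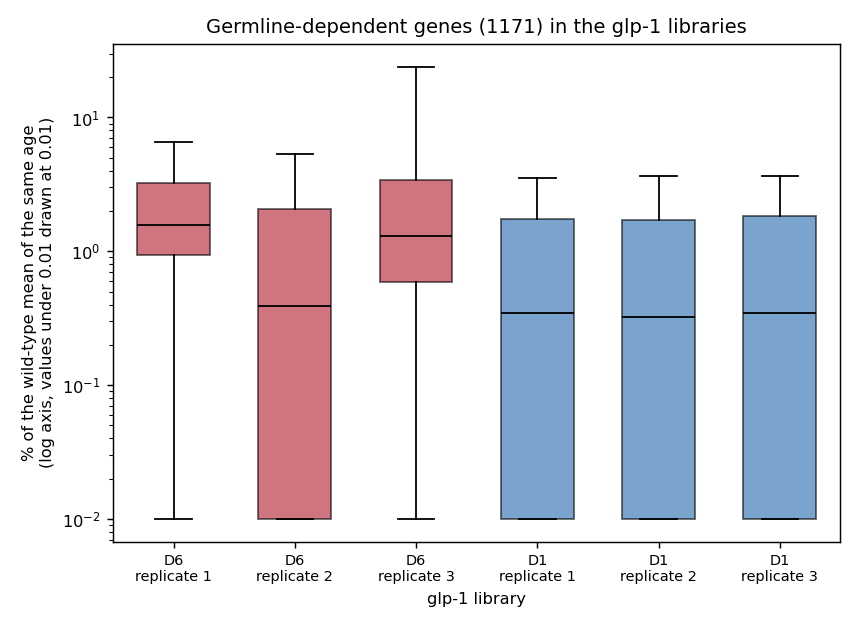
Level of the 1171 germline-dependent genes in each glp-1 library as a percent of the wild-type mean of the same age, on a log axis with values under 0.01 drawn at 0.01. Boxes span the quartiles with the median as a line, and whiskers end at percentiles 10 and 90. The medians of D6 replicates 1 and 3 stand at 1.57% and 1.29%, and that of D6 replicate 2, at 0.392%, stands near the D1 libraries at 0.322% to 0.345%.

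Of 23 oocyte and eggshell genes 12 passed the filter, 9 of which rose and none fell (7 to 12 with any library left out). cpg-2, a chitin-binding proteoglycan of the eggshell, had 25.8, 3.41 and 15.7 FPKM in glp-1 D6 libraries, against 1.53, 0.699 and 0.89 FPKM in glp-1 D1 libraries (log2 fold change 2.64, SE 0.69, adjusted p = 0.0203); the call was lost without any of the D1 libraries. The RNA-binding regulators pos-1 and gld-1 had 12.18, 2.05 and 6.76 FPKM and 7.24, 1.42 and 4.85 FPKM at D6, against 0.589, 0.48 and 0.0647 FPKM and 0.67, 0.49 and 0.698 FPKM at D1. In these 3 genes replicate 2 was the lowest at D6 and still above every D1 library. Other germ cell markers differed. glh-1 had 3.95, 3.39 and 4.84 FPKM at D6, against 4.58, 5.54 and 5.88 FPKM at D1, and was not called (adjusted p = 0.0805). pgl-1, him-3 and syp-1 did not pass the filter, and the ages overlapped for syp-1. Of 34 germ cell and meiosis genes 12 passed the filter, 7 of which rose and 1 fell (7 higher and 3 lower with median ratio scaling). The cyclin gene cyb-3 had 14.1, 5.27 and 11.9 FPKM in glp-1 D6 libraries, against 1.99, 2.12 and 2.7 FPKM in glp-1 D1 libraries, again with D6 replicate 2 lowest. Of 12 early embryo genes 2 passed the filter, none of which rose and 1 fell. That fall was lost without D1 replicate 2 or 3 or D6 replicate 1 or 2. With the muscle and neuron scaling 1 was higher and none lower. tbx-37 was listed at 0 in all 6 libraries, with wild-type means of 5.81 FPKM at D6 and 1.28 FPKM at D1. Of the 1171 germline-dependent genes 304 passed the filter, 133 of them rose and 3 fell, and together the 304 made up 2.62% of all genes tested and the 133 made up 2.69% of all genes that rose. A gene near 0 at D1 passes the filter only through its D6 level, and the set was chosen by low levels in the same D1 libraries. More rises than falls were therefore favoured in advance, and these counts are no test of a rise. The same limit holds for most oocyte and eggshell genes tested. Without the germline-dependent genes 3 of them were left, 2 of which rose. Without D6 replicate 2 the count was 157 higher and 0 lower, and leaving out any other library left 102 or more of them higher. With the median ratio scaling it was 81 higher and 11 lower, and with the muscle and neuron scaling 205 higher and 1 lower.

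Other genes linked to germline or eggshell differed among themselves, and only some departed from that pattern. perm-4, a gene of the eggshell permeability barrier, was among the 10 most abundant genes in every D6 library, with 6452.6, 6024.1 and 6838.3 FPKM. It was not a germline-dependent gene by the rule above, since all 1171 of those summed to only 2945.5, 1788.9 and 2649.9 FPKM at D6. Its level is therefore no measure of germline RNA, and the tissue it came from was not tested. The Piwi gene prg-1, which binds piRNAs in germ cells, fell, with 4.1, 2.5 and 4.5 FPKM in glp-1 D6 libraries, against 12.9, 16 and 15.9 FPKM in glp-1 D1 libraries (log2 fold change -1.78). The chitinase gene cht-1 (chromosome X, 3397613 to 3400017, minus strand) met the rule for germline-dependent genes but reached 102, 79.5 and 58.7 FPKM at D6, against 0.338, 0.0427 and 1.58 FPKM at D1, with replicate 2 inside the D6 range (log2 fold change 5.69, SE 0.36). Other germline-dependent genes with a high D6 level changed less than cht-1, among them the histone variant gene htz-1, with 48, 26.4 and 38.3 FPKM in glp-1 D6 libraries, against 30.5, 32.9 and 29.7 FPKM in glp-1 D1 libraries, and car-1, a gene of germline RNA granules, with 72.9, 62.9 and 69.1 FPKM in glp-1 D6 libraries, against 49.4, 53.3 and 54 FPKM in glp-1 D1 libraries. D6 replicate 2 was the lowest D6 library for both. The ages overlapped for htz-1, whereas every D6 library of car-1 lay above every D1 library. The embryonic small heat shock gene sip-1 and the germline Y-box gene cey-2, chosen after their values were seen, were not called (adjusted p = 0.0695 and 0.0555). sip-1 had 32.6, 2.21 and 17.1 FPKM in D6 libraries, against 2.12, 0.617 and 0.624 FPKM in D1 libraries, and cey-2 had 25.5, 2.42 and 18.2 FPKM in D6 libraries, against 1.62, 1.38 and 1.01 FPKM in D1 libraries. In both, D6 replicate 2 lay closest to D1. Major sperm protein genes summed to 10.4, 10.2 and 57.2 FPKM at D6 and 7.02, 8.79 and 12.8 FPKM at D1, so that only D6 replicate 3 stood apart. Of the 33 sperm genes 4 passed the filter, and 3 of these rose as deposited (2 without D1 replicate 1 or without D1 replicate 3, and 1 higher and 1 lower with median ratio scaling).

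Between the ages 7000 of the 11599 genes were called (60.4%), 4938 of them higher at D6 (42.6%) and 2062 lower (17.8%). A further 478 missed the adjusted threshold but had an unadjusted p under 0.05, and at least 2-fold changes were called for 1193 genes upward and 638 downward. In 5418 genes (46.7%) every D6 library lay above every D1 library, and in 2297 (19.8%) every D6 library lay below. The direction of small changes depended on the scaling. The median log2 fold change of all genes was 0.23 as deposited, 0.02 with the median ratio scaling and 0.54 with the muscle and neuron scaling. The share of calls that were higher was 70.5% (4938 against 2062 lower), 50.9% (3179 against 3066) and 86.5% (7393 against 1154) in that order. In all 3 scalings 3179 genes rose and 1154 fell, and these held 1188 of the 1193 rises and 632 of the 638 falls of at least 2-fold. Every list median below is to be read beside the 0.23 of all genes and the calls beside 42.6% higher and 17.8% lower.

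**Figure D2:**
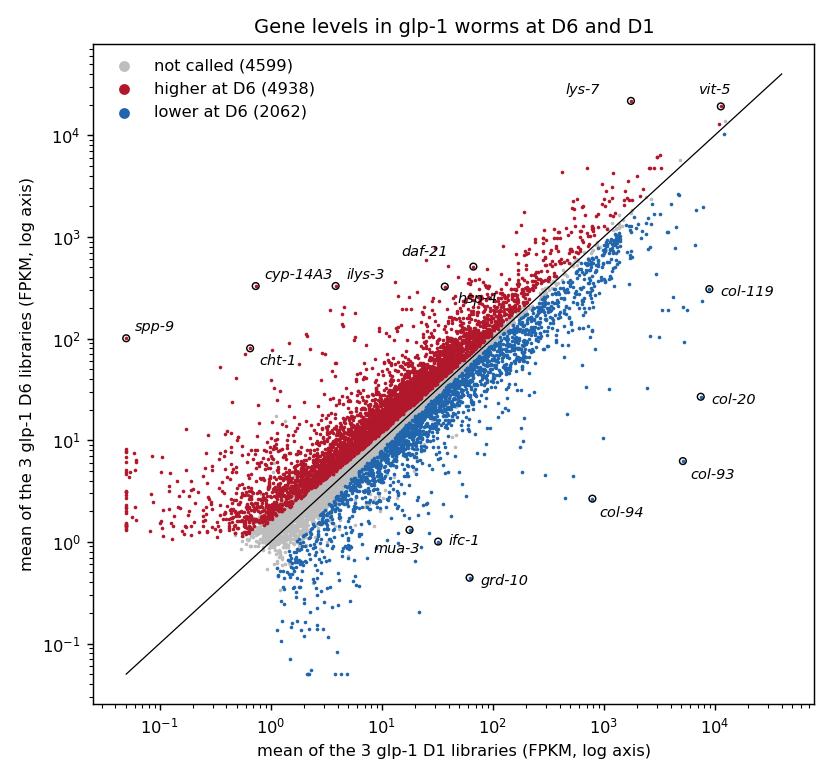
Mean of the 3 glp-1 D6 libraries against the mean of the 3 glp-1 D1 libraries for the 11599 genes tested, in FPKM on log axes with means under 0.05 drawn at 0.05. Red points rose (4938), blue points fell (2062) and grey points were not called (4599); the line marks equal means, and named genes are ringed.

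The genes with the 3 largest rises were cyp-14A3, spp-9 and ilys-3, and those with the 3 largest falls were the collagens col-93, col-20 and col-94. cyp-14A3 (chromosome X, 13271837 to 13274202, minus strand), a cytochrome P450, had 315, 339 and 331 FPKM in glp-1 D6 libraries, against 1.07, 0.647 and 0.487 FPKM in glp-1 D1 libraries (log2 fold change 7.58, SE 0.12, adjusted p = 1.36e-09). spp-9 (chromosome X, 11487784 to 11488203, plus strand), a saposin-like gene, had 107, 115.2 and 79.6 FPKM in glp-1 D6 libraries, against 0, 0 and 0.0764 FPKM in glp-1 D1 libraries, so 2 of the 3 D1 libraries list it at 0 (log2 fold change 6.61). ilys-3 (chromosome IV, 2464456 to 2465443, plus strand), an invertebrate-type lysozyme, had 358, 278 and 350.4 FPKM in glp-1 D6 libraries, against 3.91, 0.497 and 7.14 FPKM in glp-1 D1 libraries (log2 fold change 6.39, SE 0.68). In each of these genes every D6 library lay above every D1 library. lys-7 (chromosome V, 3481432 to 3482600, minus strand), a lysozyme gene and known DAF-16 target, became the most abundant transcript in D6 replicates 2 and 3 and the second in replicate 1, with 19296, 22645 and 23282 FPKM, against 1931, 1535 and 1802 FPKM in glp-1 D1 libraries (log2 fold change 3.63, SE 0.11, adjusted p = 3.79e-08). The 15 largest rises among named genes with a mean of at least 1 FPKM at both ages, which leaves out cyp-14A3 and spp-9, took in dct-8 (4.84), gba-2 (4.34), a glucocerebrosidase homologue, cyp-29A4 (4.12), the aspartyl protease gene asp-17 (3.76) and ora-1 (3.73), given as log2 fold changes. At D1 the most abundant genes were the vitellogenins vit-2, vit-5 and vit-6 with far-2, followed by collagens such as col-119. col-93 (chromosome III, 10984552 to 10985609, minus strand) fell furthest, with 5.29, 5.82 and 7.58 FPKM in glp-1 D6 libraries, against 4944, 5088 and 5435 FPKM in glp-1 D1 libraries (log2 fold change -9.49, SE 0.11, adjusted p = 1.9e-10). Among the genes known only by a sequence name F48C1.9 and H25K10.4 were in the 5 largest rises with such a mean, at 213, 178 and 180.8 FPKM and 101, 106.4 and 111 FPKM in D6 libraries, against 5.52, 1.34 and 3.38 FPKM and 1.96, 2.39 and 1.99 FPKM in D1 libraries. Next to them stood K09H11.7, T23E7.6 and F56D6.8 (log2 fold changes 5.38, 5.04 and 4.74). dct-8 and F56D6.8 may share reads as similar copies. The falls with a sequence name only were led by F53F1.4 and F32B5.1 (log2 fold changes -4.95 and -4.56). Coordinates are of the WBcel235 build. Whether counting used the strand was not stated, so values of genes that overlap another gene may share reads with it; among those named these are T23E7.6, cht-1, clec-87, col-119, col-124, col-92, col-93, col-94, csr-1, daf-36, dnj-13, far-3, fipr-1, gba-2, glp-1, gst-4, hrg-1, hsp-12.2, hsp-70, idh-1, ifa-4, ifb-1, mrps-16, nhr-114, nlp-24, pho-1, prg-1, rpl-24.2, sod-3, ttr-42, ugt-25 and unc-52.

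**Figure D3:**
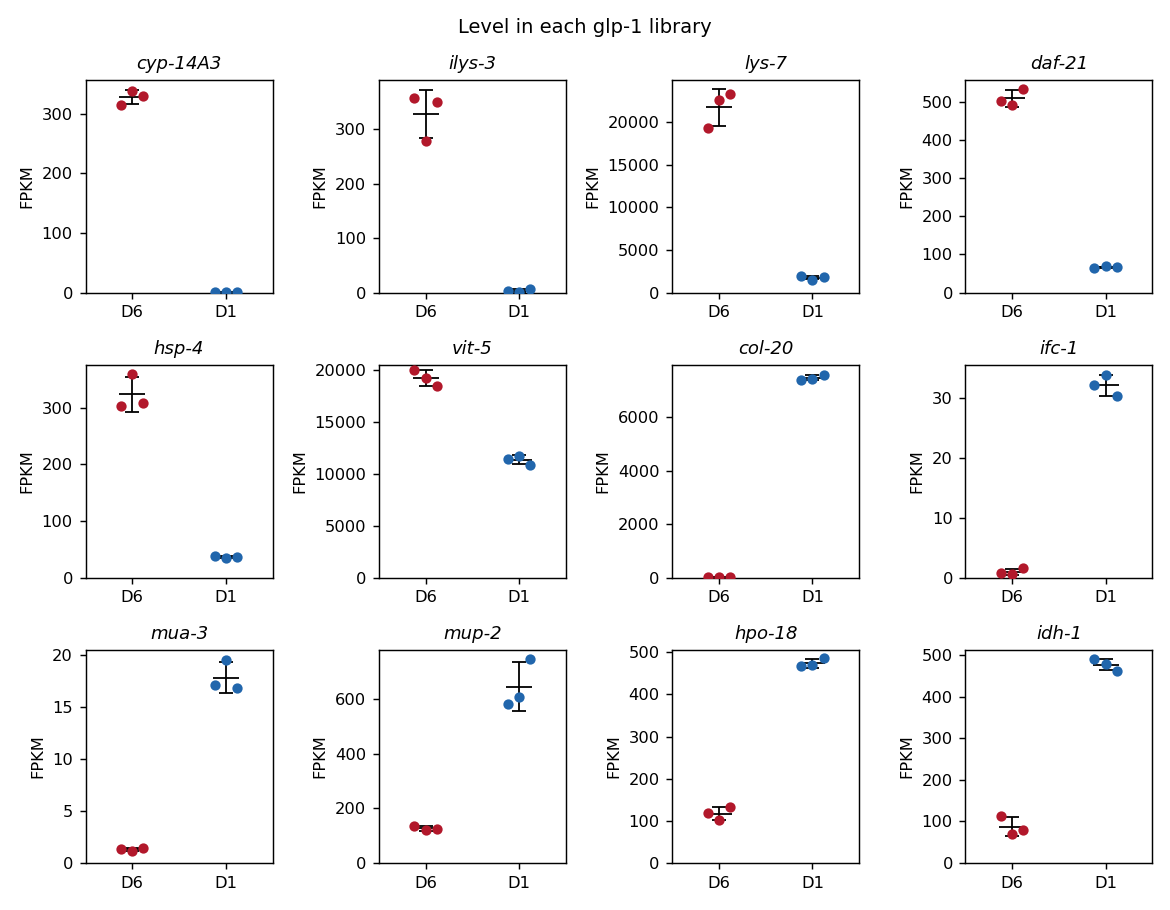
FPKM of 12 genes in each glp-1 library, D6 left of D1, with points for replicates 1 to 3 from left to right, a dash for the mean and bars of 1 SD (n = 3). In all 12 panels the D6 points and the D1 points do not overlap.

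The intermediate filament genes, which the study is about, mostly fell. Of 12 genes 11 passed the filter (ifa-3 did not), 7 fell, 1 rose and 3 were not called (median log2 fold change -0.72; 9 lower and 1 higher with the median ratio scaling, 6 lower and 3 higher with the muscle and neuron scaling). ifc-1 (chromosome V, 2881393 to 2883753, plus strand), a filament of the intestine, fell most. It had 0.81, 0.637 and 1.57 FPKM in glp-1 D6 libraries, against 32.2, 34 and 30.5 FPKM in glp-1 D1 libraries (log2 fold change -4.08, SE 0.17, adjusted p = 1.95e-07). The other intestinal filaments were less changed. ifb-2 had 71.7, 80 and 84 FPKM in glp-1 D6 libraries, against 133, 130.3 and 128 FPKM in glp-1 D1 libraries (log2 fold change -0.72), and ifd-1 had 7.76, 8.5 and 9.27 FPKM at D6 and 16.3, 16.3 and 14.2 FPKM at D1 (log2 fold change -0.80). ifc-2, which like ifb-2 belongs to the terminal web under the intestinal microvilli, had 118, 137 and 140.2 FPKM in glp-1 D6 libraries, against 139.7, 133 and 120.0 FPKM in glp-1 D1 libraries, and the groups overlapped (adjusted p = 0.971). ifp-1 fell at a low level, to 0.558, 0.798 and 1.1 FPKM at D6, against 2.75, 2.87 and 3 FPKM at D1, and ifd-2 overlapped between the ages (adjusted p = 0.532).

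The epidermal filaments fell less than ifc-1. mua-6, which links the epidermis to cuticle and muscle, had 68.5, 68.3 and 52.3 FPKM in glp-1 D6 libraries, against 189, 191 and 188 FPKM in glp-1 D1 libraries, with replicate 3 lowest at D6 (log2 fold change -1.58, SE 0.10, adjusted p = 2.46e-06). ifb-1, the gene of their obligate partner in the epidermis, had 130.4, 124.8 and 118 FPKM in glp-1 D6 libraries, against 230.4, 223 and 224 FPKM in glp-1 D1 libraries (log2 fold change -0.86, SE 0.061). ifa-1 fell by less (-0.36) and was not called with the muscle and neuron scaling. ifa-4 (chromosome X, 4912308 to 4915979, minus strand) was the exception, with 40.8, 43.4 and 42.4 FPKM in glp-1 D6 libraries, against 20.8, 20.5 and 22.3 FPKM in glp-1 D1 libraries (log2 fold change 0.96, SE 0.070, adjusted p = 5.36e-06). The nuclear lamin lmn-1 had 50.4, 50 and 49.9 FPKM in glp-1 D6 libraries, against 51.4, 48.6 and 50.7 FPKM in glp-1 D1 libraries, and the log2 difference was 0.00 with an SE of 0.060. It was called lower with the median ratio scaling (-0.24) and higher with the muscle and neuron scaling (0.34). mua-3 and mup-4, genes of proteins that hold filaments in hemidesmosomes at the apical side of the epidermis, also fell in transcript level. mua-3 (chromosome III, 10160697 to 10183529, plus strand), a transmembrane attachment protein, had 1.29, 1.18 and 1.46 FPKM in glp-1 D6 libraries, against 17.1, 19.5 and 16.8 FPKM in glp-1 D1 libraries (log2 fold change -3.02, SE 0.11, adjusted p = 1.44e-07), and mup-4 had 50.7, 45.2 and 35.3 FPKM at D6 and 84.2, 84.9 and 76.3 FPKM at D1 (log2 fold change -0.90). Of the 17 attachment and junction genes 9 rose and 7 fell as deposited, with 4 higher and 8 lower after median ratio scaling. The risers in each scaling included the apical spectrin sma-1, at 51.2, 62.4 and 55.1 FPKM at D6 and 23.3, 26.4 and 21.7 FPKM at D1, and the junction scaffold dlg-1 (log2 fold change 0.79). act-5, the actin of the intestinal microvilli, fell to 397, 446 and 536 FPKM at D6, against 869.7, 821 and 837 FPKM at D1.

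Cuticle collagens, which the epidermis secretes to build the worm's exoskeleton, held the largest falls. Of 157 col- genes 100 passed the filter, 56 fell, 51 of them at least 2-fold, 5 rose and 39 were not called (median -1.83). Their summed level was 12404, 10788 and 10054 FPKM in D6 libraries, against 103508, 105673 and 111671 FPKM in D1 libraries. The 28 col- genes with a D1 mean over 100 FPKM all fell, with a median of -4.87. col-20 (chromosome II, 4869670 to 4870791, minus strand) had 29.4, 28.1 and 22.8 FPKM in glp-1 D6 libraries, against 7399, 7429 and 7573 FPKM in glp-1 D1 libraries, and col-119 (chromosome IV, 8978926 to 8979795, minus strand) had 347, 325 and 247 FPKM in glp-1 D6 libraries, against 8627, 8852 and 9309 FPKM in glp-1 D1 libraries. Neighbours on chromosome III, col-92, col-93 and col-94, had log2 fold changes of -7.30, -9.49 and -8.05. They lie within the span of dhc-4, so their reads could be shared with it. col-142, col-160, col-80, col-129 and col-179 fell by more than 5 on the log2 scale, and col-140, col-81, col-98 and col-124 had log2 fold changes of -5.07, -4.98, -4.91 and -4.87. Others moved the opposite way. col-183 had 119.6, 84.8 and 68.2 FPKM in glp-1 D6 libraries, against 1.1, 2.15 and 1.12 FPKM in glp-1 D1 libraries (log2 fold change 5.21, SE 0.22, adjusted p = 4.16e-07), and col-50 and col-85 rose at low levels (log2 fold changes 1.90 and 1.70). Of the 24 epidermis and adult cuticle genes tested 12 fell and 1 rose, the collagen gene dpy-17 (log2 fold change 2.15).

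The low-level collagens were uneven among the D6 libraries, a pattern that was looked for after the values had been seen. Of the 100 col- genes 38 stood at least 4-fold higher in D6 replicate 3 than in both other D6 libraries. Their median level was 1.05, 0.152 and 7.32 FPKM at D6 and 5.39, 12.197 and 12.7 FPKM at D1. Only 8 of the 38 were called lower, and 34 were without D6 replicate 3. Since the 38 were picked by a high level in that library, its high median and this gain in falls were favoured in advance and are no test. Over all 100 col- genes the count of falls was 87 without that library instead of 56, and in the epidermis and cuticle list it was 21 instead of 12. The collagen gene dpy-5 had 6.22, 1.04 and 27.04 FPKM in D6 libraries, against 9.81, 16.9 and 20.4 FPKM in D1 libraries (log2 fold change -1.11, adjusted p = 0.417). col-73 had 6.53, 0.15 and 40.9 FPKM in D6 libraries, against 14.7, 27.4 and 42.6 FPKM in D1 libraries (log2 fold change -1.91, adjusted p = 0.319). In both, D6 replicate 2 was lowest and D6 replicate 3 highest, and the ages overlapped. Among called genes of at least 10 FPKM at D6, clec-87 had the widest gap between libraries on this measure, with 18.3, 2.11 and 11.2 FPKM in glp-1 D6 libraries, against 0.983, 1.26 and 0.765 FPKM in glp-1 D1 libraries (log2 fold change 2.18; the call was lost under 5 alternatives). In all, 126 genes stood at least 4-fold higher in D6 replicate 3 than in the other D6 libraries. They comprised 40 col- genes, 12 other cuticle genes (dpy-, rol-, sqt-, ram- or bli-), 12 msp- genes, 18 further germline-dependent genes and 44 others. A similar 102 genes stood at least 4-fold lower in D6 replicate 2, of which 16 were col- genes, 8 were other cuticle genes and 57 (55.9%) were germline-dependent. Each of the other 10 combinations of library and direction held 4 to 18 genes. The labelled temperature after D1 differed between the D6 replicates, and its part in the result was not tested.

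Genes of muscle and of the matrix around it mostly fell. Of 28 body wall muscle genes 23 fell, 13 of them at least 2-fold, and none rose (median -0.97); with the muscle and neuron scaling, which is built in part on such genes, 19 were lower and 4 higher. The troponin T gene mup-2 (chromosome X, 6408471 to 6410227, minus strand) had 136, 119.3 and 126 FPKM in glp-1 D6 libraries, against 582, 606 and 748 FPKM in glp-1 D1 libraries (log2 fold change -2.33, SE 0.10, adjusted p = 2.62e-07). The myosin heavy chain gene unc-54 had 286, 205 and 215 FPKM in glp-1 D6 libraries, against 536, 613 and 749.6 FPKM in glp-1 D1 libraries (log2 fold change -1.42, SE 0.15). Ages were separate for each of these genes. In the pharynx, whose muscle has its own proteins, the myosins myo-1 and myo-2 fell (log2 fold changes -0.79 and -0.57), while the list held 3 rises and 6 falls among 11 genes tested (3 and 3 with the muscle and neuron scaling). In the basement membranes 12 of 20 genes fell and 4 rose (median -0.51; 7 lower and 6 higher with the muscle and neuron scaling). The perlecan gene unc-52 had 33.9, 31.9 and 29.8 FPKM in glp-1 D6 libraries, against 127, 139 and 127 FPKM in glp-1 D1 libraries, and the type IV collagen gene emb-9 had 124.8, 99.2 and 116 FPKM at D6 and 207, 228 and 278 FPKM at D1. Of 19 actin and tubulin genes 13 fell and 2 rose (median -0.67), with act-1 at 446, 384 and 393 FPKM at D6 and 1001, 1085 and 1301 FPKM at D1. act-1 and act-3 are near-identical, and their values may share reads.

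Genes of energy metabolism fell. Of 34 nuclear genes of oxidative phosphorylation 33 fell, 24 at least 2-fold, and none rose (median -1.22), and with the muscle and neuron scaling 32 were still lower and none higher. hpo-18 (chromosome V, 4346089 to 4346425, minus strand), an ATP synthase subunit, had 118, 101 and 133 FPKM in glp-1 D6 libraries, against 468, 469 and 486 FPKM in glp-1 D1 libraries (log2 fold change -2.02, SE 0.094, adjusted p = 4.16e-07). The cytochrome c oxidase subunit cox-7C (listed as F26E4.6) had 181.2, 155 and 172 FPKM in glp-1 D6 libraries, against 652, 619 and 665 FPKM in glp-1 D1 libraries. Summed over the list, the level was 6794, 6452 and 7078 FPKM in D6 libraries, against 15918, 15495 and 16938 FPKM in D1 libraries. In the citrate and glyoxylate cycle 21 of 22 genes fell and none rose (median -0.82; 15 lower and 1 higher with the muscle and neuron scaling). idh-1 (chromosome IV, 9439078 to 9441107, minus strand), the cytosolic isocitrate dehydrogenase, had 113.2, 69.9 and 78.4 FPKM in glp-1 D6 libraries, against 490.2, 480.0 and 463 FPKM in glp-1 D1 libraries (log2 fold change -2.47, SE 0.15). The mitochondrial malate dehydrogenase gene mdh-2 and the aconitase gene aco-1 fell too (log2 fold changes -1.85 and -1.64). In glycolysis and gluconeogenesis 16 of 25 genes fell and 2 rose (median -0.56; 12 lower and 7 higher with the muscle and neuron scaling). The rises were of tps-1, a trehalose synthase, at 70.7, 73.3 and 73.2 FPKM at D6 and 36.2, 36.5 and 36.6 FPKM at D1, and of the hexokinase gene hxk-1 (log2 fold change 0.71). Without D6 replicate 2 the rises in this list numbered 4.

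Ribosomal protein genes of both compartments mostly fell, though by less. Of 80 cytosolic ribosomal protein genes 75 fell and 1 rose (median -0.50), and 3 of the falls reached 2-fold. With the muscle and neuron scaling 25 were lower and 2 higher. rps-21 had 395, 273 and 385 FPKM in glp-1 D6 libraries, against 690.2, 652 and 799 FPKM in glp-1 D1 libraries, with D6 replicate 2 lowest. The family was taken by gene symbol alone, and its 1 rise was of rpl-24.2. That gene had 64.9, 61.6 and 60.1 FPKM in glp-1 D6 libraries, against 29.9, 27.1 and 30.4 FPKM in glp-1 D1 libraries. Of 66 mitochondrial ribosomal protein genes 57 fell and 1 rose (median -0.62; 32 lower and 1 higher with the muscle and neuron scaling). mrps-16 had 11, 12.08 and 9.88 FPKM in glp-1 D6 libraries, against 26.8, 25.6 and 25.1 FPKM in glp-1 D1 libraries. Among genes of nucleolus and ribosome biogenesis 9 of 19 rose and none fell, a share near that of all genes (5 higher and 1 lower with median ratio scaling), with nst-1, the nucleostemin homologue, at 30.3, 33.4 and 34.3 FPKM at D6 and 14.9, 15.2 and 15.5 FPKM at D1. All 19 genes tested of the vacuolar ATPase, the proton pump of lysosomes and epithelial membranes, fell (median -0.53; 6 lower and none higher with the muscle and neuron scaling). vha-12, a subunit of its catalytic sector, had 200.3, 186 and 185 FPKM in glp-1 D6 libraries, against 334, 338 and 331 FPKM in glp-1 D1 libraries. Proteasome subunits and translation factors had no direction that held across scalings: the proteasome genes had 9 higher and 6 lower of 32 as deposited, 1 and 17 with median ratio scaling and 24 and 0 with muscle and neuron scaling. For 36 translation factors and tRNA synthetases these counts were 10 and 4, 6 and 19, and 25 and 0. The deposited counts of falls also rested on single libraries, with 2 proteasome genes lower without D6 replicate 2 and 1 translation gene lower without D1 replicate 2.

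**Figure D4:**
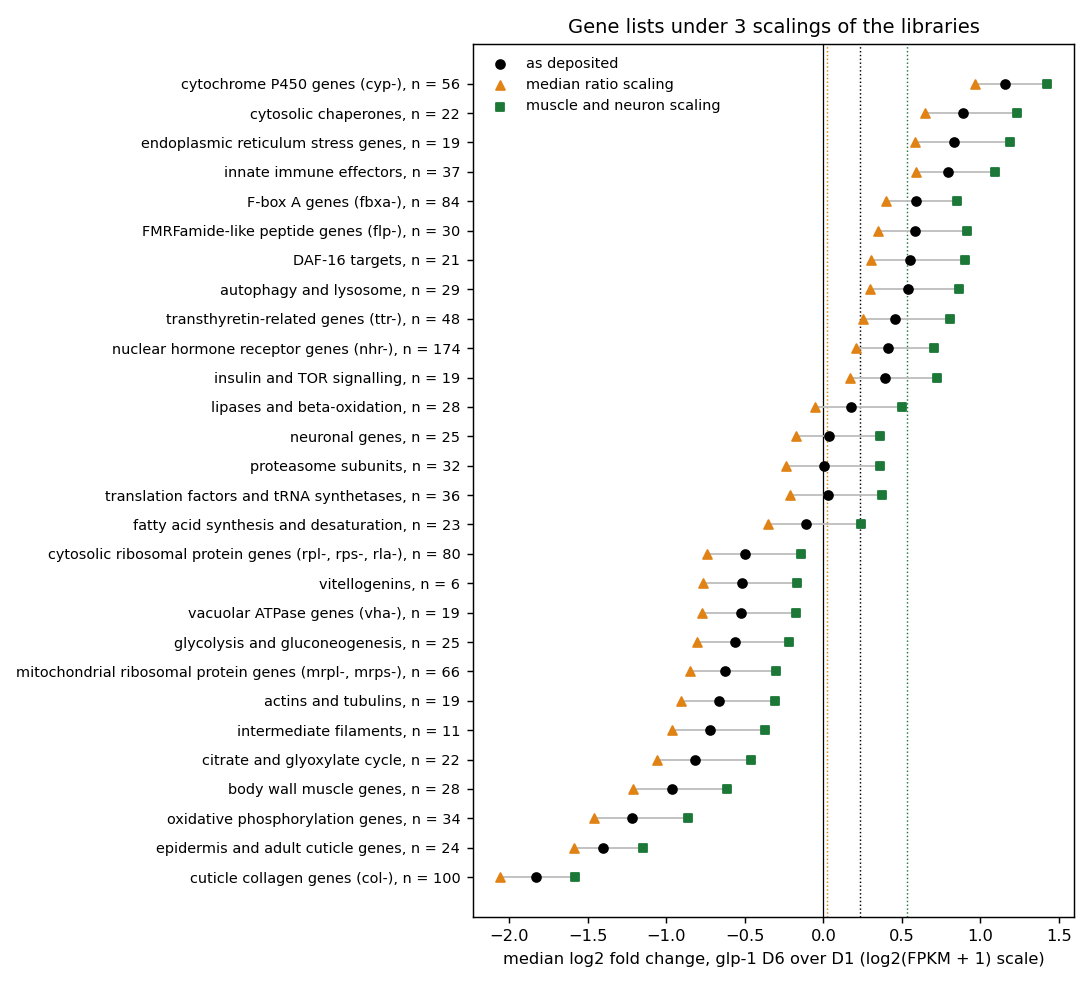
Median log2 fold change, glp-1 D6 over D1, of 28 gene lists with the number of genes tested, for the deposited values (circles) and after median ratio scaling (triangles) and muscle and neuron scaling (squares). Dotted lines mark the median of all genes in each scaling (0.23, 0.02 and 0.54). The median changes sign between scalings for lipases, neuronal genes, proteasome, translation factors and fatty acid synthesis, and keeps its sign in the other 23 lists shown.

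Chaperone genes of the cytosol and of the endoplasmic reticulum (ER) rose. Of 22 cytosolic chaperone genes 20 rose and none fell (median 0.89; 19 higher and 1 lower with median ratio scaling). daf-21, the HSP90 gene, had 503, 491 and 535 FPKM in glp-1 D6 libraries, against 65.8, 68.6 and 66.4 FPKM in glp-1 D1 libraries (log2 fold change 2.91, SE 0.059, adjusted p = 5.76e-09). It met the rule for germline-dependent genes at D1, with wild-type means of 1584 FPKM at D6 and 1566 FPKM at D1. The inducible hsp-70 had 13.7, 14.3 and 25.1 FPKM in glp-1 D6 libraries, against 2.66, 3.35 and 2.61 FPKM in glp-1 D1 libraries, with replicate 3 highest, and the J-domain gene dnj-13 had 105.8, 89.5 and 117 FPKM at D6 and 26.9, 28.1 and 24.4 FPKM at D1. Among 19 ER stress genes 17 rose and none fell (median 0.83; 16 higher and 1 lower with median ratio scaling). hsp-4 (chromosome II, 7350112 to 7352645, minus strand), the BiP chaperone used as a reporter of the unfolded protein response, had 304, 359.6 and 309 FPKM in glp-1 D6 libraries, against 39.1, 34.5 and 37.3 FPKM in glp-1 D1 libraries (log2 fold change 3.09, SE 0.082, adjusted p = 2.1e-08). The ER stress kinase pek-1 had 51.6, 52.8 and 56.3 FPKM at D6 and 17.3, 16.3 and 11.6 FPKM at D1. Other stress classes were mixed. Of 14 small heat shock genes 3 rose and 3 fell (3 and 5 with median ratio scaling, 6 and 2 with muscle and neuron scaling), with hsp-12.6, a known DAF-16 target, at 8.49, 9.86 and 5.68 FPKM at D6 and 0.589, 0.475 and 0.922 FPKM at D1, and hsp-12.2 at 49.3, 42.6 and 42.9 FPKM at D6 and 108, 89.3 and 105.9 FPKM at D1. These small counts moved to 7 rises without D6 replicate 2 and to 6 falls without D6 replicate 3. The mitochondrial chaperones diverged: hsp-60 fell (log2 fold change -0.88, SE 0.10) and hsp-6 rose (log2 fold change 0.43, SE 0.069). In autophagy and lysosome genes 19 of 29 rose and 7 fell, and all 7 falls were of vha- genes, subunits of the vacuolar ATPase. The autophagy receptor sqst-1 had 191, 197 and 195 FPKM in glp-1 D6 libraries, against 86.8, 89.4 and 78.2 FPKM in glp-1 D1 libraries, and bec-1, the Beclin homologue, had 49.3, 47.5 and 50.2 FPKM at D6 and 20.7, 26 and 19.5 FPKM at D1.

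Detoxification genes split by family. Of 56 cytochrome P450 genes tested 46 rose, 30 of them at least 2-fold, and 4 fell (median 1.16; 40 higher and 6 lower with median ratio scaling). Their sum was 3419, 3701 and 3801 FPKM in D6 libraries, against 1054, 1038 and 969.9 FPKM in D1 libraries. cyp-34A9 had 530.0, 607 and 647 FPKM in glp-1 D6 libraries, against 26.3, 23.5 and 25 FPKM in glp-1 D1 libraries, and cyp-35B1, a known DAF-16 target, had 266, 271 and 248 FPKM at D6 and 15, 13.8 and 13.5 FPKM at D1. The UDP-glucuronosyltransferases were divided, with 24 rises and 18 falls among 52 tested, and 14 and 21 with median ratio scaling. ugt-25 rose to 356, 394 and 339.7 FPKM at D6, against 12.9, 15.1 and 11.5 FPKM at D1, and ugt-31 fell to 6.01, 6.13 and 4.92 FPKM, against 28.9, 24.3 and 26.7 FPKM. Glutathione S-transferases went down more often than up, with 17 falls and 7 rises among 39 tested, though with 13 and 13 in the muscle and neuron scaling. gst-4, a reporter of the oxidative stress factor SKN-1, had 33.5, 29.6 and 30.8 FPKM in glp-1 D6 libraries, against 160.4, 180.7 and 200.2 FPKM in glp-1 D1 libraries (log2 fold change -2.49, SE 0.090, adjusted p = 1.26e-07). Among 27 oxidative stress genes 12 rose and 12 fell (10 and 13 with median ratio scaling, 14 and 7 with muscle and neuron scaling). The mitochondrial superoxide dismutase sod-3 had 21.7, 16.9 and 21.2 FPKM in glp-1 D6 libraries, against 58.1, 59.8 and 63.3 FPKM in glp-1 D1 libraries, and the mitochondrial peroxiredoxin prdx-3 had 66.2, 68.3 and 64.4 FPKM at D6 and 192, 202 and 207 FPKM at D1. Both fell, while the ferritin gene ftn-1 rose to 395, 293 and 335 FPKM at D6, against 51.5, 79.5 and 54.9 FPKM at D1, and the metallothionein gene mtl-1 to 1004, 1069.5 and 1276 FPKM, against 402, 365 and 422 FPKM.

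In most defence families more genes rose than fell, as among all genes tested (42.6% and 17.8%), and the C-type lectins lay near those shares. With median ratio scaling the counts higher and lower were 20 and 11 for innate immune effectors and 5 and 4 for lysozymes. They were 9 and 4 for saposin-like genes, 14 and 9 for fungus-induced and caenacin genes, 38 and 23 for C-type lectins, and 11 and 4 for the proteases. Of 37 innate immune effectors 22 rose and 9 fell (median 0.80), and the sum was 43717, 46006 and 48772 FPKM in D6 libraries, against 17104, 16065 and 17579 FPKM in D1 libraries, of which lys-7 was the largest part. Among 13 lysozyme genes 7 rose and 2 fell as deposited. lys-10 had 60.5, 72.4 and 97.1 FPKM in glp-1 D6 libraries, against 1.55, 0.563 and 0.972 FPKM in glp-1 D1 libraries, whereas lys-2 had 492, 458 and 461 FPKM in glp-1 D6 libraries, against 842, 913 and 814 FPKM in glp-1 D1 libraries, both with separate ages. The thaumatin-like thn-1 rose to 234, 174 and 210.3 FPKM at D6, against 5.2, 4.34 and 4.06 FPKM at D1. Saposin-like genes had 10 rises and 4 falls among 18: spp-12 had 50.6, 43.6 and 29.1 FPKM at D6 and 0.818, 0.493 and 0.16 FPKM at D1, and spp-17 had 344, 294 and 358 FPKM at D6 and 1168, 1097 and 1410.4 FPKM at D1. The fungus-induced and caenacin peptide families, known for antifungal defence in the epidermis, changed in both directions, with 15 rises and 9 falls among 26 tested. cnc-2 had 57.2, 46.5 and 39.2 FPKM in glp-1 D6 libraries, against 2.58, 3.1 and 4.96 FPKM in glp-1 D1 libraries, and fipr-1 had 2.06, 2.2 and 1.5 FPKM in glp-1 D6 libraries, against 20.6, 28.2 and 29.7 FPKM in glp-1 D1 libraries. In C-type lectins 44 of 88 rose and 18 fell, with clec-218 at 185, 192 and 167 FPKM at D6 and 22, 23.5 and 23.3 FPKM at D1 and clec-265 at 9.07, 7.98 and 10.2 FPKM at D6 and 84, 95.2 and 79.8 FPKM at D1. Among cathepsin B and aspartyl protease genes 13 of 19 rose and 3 fell, and the cathepsin B genes cpr-1 and cpr-4 rose to 4577, 4502 and 5064 FPKM and 2059, 2340.2 and 2396 FPKM at D6, against 986, 405 and 749 FPKM and 701, 379 and 504 FPKM at D1. The D1 libraries differed among themselves in cpr-1, replicate 2 being lowest.

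Fat and yolk genes were reshaped rather than moved as a group. In fatty acid synthesis and desaturation 10 of 23 genes rose and 11 fell (median -0.11; 6 and 12 with median ratio scaling, 11 and 8 with muscle and neuron scaling). The desaturases of polyunsaturated fats rose: fat-3 (chromosome IV, 9803023 to 9806119, plus strand) had 869, 973 and 929 FPKM in glp-1 D6 libraries, against 335, 286 and 287 FPKM in glp-1 D1 libraries (log2 fold change 1.61, SE 0.080, adjusted p = 6.06e-07), and fat-2 was among the 10 most abundant genes at D6, with 5627, 6549 and 5947 FPKM, against 3095, 2992 and 2941 FPKM at D1. The elongase gene elo-2 fell to 77.3, 73 and 85.9 FPKM at D6, against 303, 291 and 271 FPKM at D1. In lipases and beta-oxidation 14 of 28 rose and 9 fell, and 11 and 12 with median ratio scaling. The lysosomal lipase lipl-1 had 183, 185 and 217 FPKM in glp-1 D6 libraries, against 24.4, 10.4 and 20.4 FPKM in glp-1 D1 libraries, and lipl-4, required for the long life of germline-less worms, had 10.4, 8.14 and 7.2 FPKM in glp-1 D6 libraries, against 2.02, 1.53 and 2.02 FPKM in glp-1 D1 libraries. cpt-1, the carnitine palmitoyltransferase of fat oxidation, rose to 252, 265 and 251 FPKM at D6, against 78.7, 72.2 and 68.6 FPKM at D1. acdh-1, an acyl-CoA dehydrogenase of propionate and branched-chain breakdown, fell to 129, 72 and 111 FPKM at D6, against 744, 779 and 712 FPKM at D1, as did the hydratase ech-6 (log2 fold change -2.43). Of 6 vitellogenin genes, which encode yolk proteins made in the intestine, 4 fell and 1 rose. vit-5 (chromosome X, 3403471 to 3408603, plus strand) had 19976, 19228 and 18399 FPKM in glp-1 D6 libraries, against 11445, 11694 and 10835 FPKM in glp-1 D1 libraries (log2 fold change 0.76, SE 0.068, adjusted p = 1.77e-05), whereas vit-1 had 739, 720.0 and 728 FPKM in glp-1 D6 libraries, against 1762, 1787 and 1698 FPKM in glp-1 D1 libraries. The near-identical vit-3 and vit-4 fell (log2 fold changes -0.95 and -0.81), and reads of these copies may be split between them. In one-carbon metabolism, which supplies methyl groups for phosphatidylcholine, sams-1 had 43.5, 45.5 and 45.9 FPKM in glp-1 D6 libraries, against 131, 128 and 132 FPKM in glp-1 D1 libraries and pmt-2 had 224, 236 and 198 FPKM at D6 and 600.4, 565 and 559 FPKM at D1.

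Longevity pathways moved in part. Of 21 DAF-16 targets 12 rose and 4 fell (median 0.55), the falls being of gst-10, sod-3, aqp-1 and icl-1. With median ratio scaling 11 were higher and 7 lower, and with muscle and neuron scaling 12 and 3. Their interactions with genotype were split, 6 above 0 and 5 below. Of 9 dod- genes, named as genes downstream of DAF-16, 5 rose and 4 fell (4 and 4 with median ratio scaling). dod-6 had 1135, 1094 and 1148 FPKM in glp-1 D6 libraries, against 159, 154 and 176 FPKM in glp-1 D1 libraries, and dod-17 had 2.48, 2.3 and 2.16 FPKM in glp-1 D6 libraries, against 18.3, 21.9 and 30.5 FPKM in glp-1 D1 libraries, both with separate ages. In insulin and TOR signalling 14 of 19 genes rose and 1 fell (median 0.39; 8 and 2 with median ratio scaling), with the insulin receptor gene daf-2 at 41, 37.6 and 38.4 FPKM at D6 and 23.9, 23.4 and 19 FPKM at D1. The regulators of longevity after germline loss had 10 rises and 1 fall among 21, and 7 and 5 with median ratio scaling. The fall was of daf-36, an oxygenase of dafachronic acid synthesis, at 11.1, 15.5 and 14.9 FPKM at D6 and 29.2, 22.4 and 25.2 FPKM at D1.

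Signalling genes and large gene families differed in how many members rose. Of 25 neuronal genes 9 rose and 5 fell as deposited (5 and 7 with median ratio scaling), with a median of 0.03, below the 0.23 of all genes. The synaptobrevin gene snb-1, higher at D6 unlike most of the list, had 596, 572 and 579 FPKM at D6 and 353, 342 and 323 FPKM at D1. FMRFamide-like peptide genes rose in 25 of 30 and fell in 1 (median 0.58), with flp-34 at 23.2, 25.8 and 20 FPKM at D6 and 5.95, 2.57 and 3.84 FPKM at D1. Insulin-like peptide genes had 11 rises and 1 fall among 21. ins-19 had 108, 114 and 121 FPKM in glp-1 D6 libraries, against 11.5, 8.6 and 12.4 FPKM in glp-1 D1 libraries. The neuropeptide-like gene nlp-39 rose to 101, 83.1 and 145 FPKM at D6, against 1.24, 2.04 and 2.98 FPKM at D1, and nlp-24 fell to 18.6, 16.9 and 21.3 FPKM, against 113.3, 133 and 114 FPKM. F-box A genes, adaptors of ubiquitin ligases, rose in 57 of 84 tested and fell in 2 (median 0.59; 39 and 9 with median ratio scaling). skr-12 (chromosome IV, 17167274 to 17167792, plus strand), a Skp1-related subunit of such ligases, had 167, 176 and 187 FPKM in glp-1 D6 libraries, against 3.89, 6.74 and 6.48 FPKM in glp-1 D1 libraries (log2 fold change 4.76, SE 0.16, adjusted p = 9.41e-08). Nuclear hormone receptor genes rose in 100 of 174 and fell in 9 (median 0.41; 56 and 16 with median ratio scaling). The fall of nhr-114 was the largest among them, to 16.3, 13.1 and 17.4 FPKM at D6, against 56.7, 49.2 and 54 FPKM at D1. Hedgehog-related genes had 6 rises and 6 falls among 18 tested. grd-10 had 0.519, 0 and 0.811 FPKM in glp-1 D6 libraries, against 63, 54 and 68.6 FPKM in glp-1 D1 libraries and grd-3 had 34.5, 36.3 and 28.5 FPKM at D6 and 714, 684 and 657 FPKM at D1. Patched-related genes had 13 rises and 3 falls among 21, and ptr-22 (chromosome V, 18919221 to 18931379, minus strand), the furthest up of them, had 56.1, 52.1 and 49.4 FPKM in glp-1 D6 libraries, against 0.312, 0.3 and 0.432 FPKM in glp-1 D1 libraries (log2 fold change 5.31, SE 0.10, adjusted p = 4.01e-09). MATH and BATH domain genes, adaptors of another kind of ubiquitin ligase, rose in 23 of 31 and fell in 2, with math-38 at 13.7, 13.1 and 14.8 FPKM at D6 and 4, 2.45 and 3.38 FPKM at D1. Of 1345 chemoreceptor genes only 43 passed the filter, and 23 of these rose and 4 fell.

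Transport and chromatin genes were mixed. Among 31 ABC transporter genes 14 rose and 6 fell as deposited, against 9 higher and 12 lower with median ratio scaling. pgp-11 had 13.8, 15.8 and 14.8 FPKM in glp-1 D6 libraries, against 4.76, 5.7 and 5.2 FPKM in glp-1 D1 libraries, and pgp-5 had 6.33, 6.07 and 6.17 FPKM in glp-1 D6 libraries, against 20.4, 21.3 and 20.4 FPKM in glp-1 D1 libraries, both with separate ages. Short-chain dehydrogenase genes included dhs-25, which fell to 32.9, 25.5 and 30.8 FPKM at D6, against 242, 221 and 241 FPKM at D1, and dhs-19, which rose to 186, 194 and 184 FPKM, against 47.7, 52 and 43.9 FPKM. The fatty acid and retinol binding gene far-3 rose to 2409.8, 2336 and 2249.6 FPKM at D6, against 521, 635 and 573 FPKM at D1, while lbp-5, a fatty acid binding protein gene, fell (log2 fold change -0.80). Histone genes, many of them near-identical copies, had 7 rises and 12 falls among 31 (9 and 11 with muscle and neuron scaling; 4 rises without D1 replicate 2). his-72, an H3.3 variant, had 117, 116 and 132 FPKM in glp-1 D6 libraries, against 73.4, 58.6 and 74.5 FPKM in glp-1 D1 libraries. Of 11 Argonaute genes 5 rose and 2 fell as deposited, against 3 higher and 5 lower with median ratio scaling, with csr-1 at 56.4, 58.8 and 60 FPKM at D6 and 36.7, 37.7 and 35.7 FPKM at D1.

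Genes of other organs moved unequally. In the intestine 13 of 23 listed genes rose and 7 fell (8 and 8 with median ratio scaling), and log2 fold changes ran from -2.24 to 2.81 with a median of 0.25. Among the lower genes, the acid phosphatase gene pho-1 had 11.3, 12 and 13.2 FPKM at D6 and 67.2, 59.7 and 56.5 FPKM at D1. The haem transporter gene hrg-1, also lower, had 31, 30.5 and 30.1 FPKM at D6 and 84.4, 104.4 and 72.6 FPKM at D1. In the somatic gonad inx-8, an innexin of the sheath cells that contact the germline, had 263, 285 and 311 FPKM in glp-1 D6 libraries, against 106.02, 112.98 and 99.5 FPKM in glp-1 D1 libraries (log2 fold change 1.42, SE 0.079, adjusted p = 1.15e-06), with separate ages. Of 14 gonad and sheath genes 7 rose and 2 fell as deposited, and 3 and 4 with median ratio scaling. Transthyretin-related genes rose in 30 of 48 and fell in 7, from ttr-29 at 54.6, 59.1 and 58.7 FPKM at D6 and 4.15, 4.51 and 2.71 FPKM at D1 to ttr-42 at 9.96, 11.2 and 18.3 FPKM at D6 and 99, 90.5 and 93.5 FPKM at D1.

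The change with age was then set against that in wild-type animals, in a fit over all 12 libraries. The interaction, obtained by subtracting the wild-type log2 change from that of glp-1, was called for 5561 of the 11599 genes, 3546 above 0 (30.6%) and 2015 below (17.4%), with a median of 0.14. The log2 fold change of daf-21 was 2.91 in glp-1 and 0.02 in wild type (interaction 2.89, SE 0.07, adjusted p = 8.22e-11). That of hsp-4 was 3.09 in glp-1 and -0.11 in wild type (interaction 3.20, adjusted p = 6.58e-10). Among cytosolic chaperones the interaction was above 0 in 17 of 22 and below in none, and among ER stress genes in 15 of 19 and in none. For cyp-14A3 it was 7.58 in glp-1 and 2.58 in wild type (interaction 5.0), and 43 of 56 cytochrome P450 genes had an interaction above 0, 2 below. F-box A genes had 44 above and none below.

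Oxidative phosphorylation and ribosomal protein genes mostly had interactions below 0. This held in 33 of 34 oxidative phosphorylation genes, whose median was -1.22 in glp-1 and -0.18 in wild type. It also held in 62 of 66 mitochondrial ribosomal protein genes, of which 19 rose and none fell in wild type, and in 69 of 80 cytosolic ones. hpo-18 was -2.02 in glp-1 and -0.17 in wild type (interaction -1.84, adjusted p = 2.52e-07). col- genes had 57 interactions below 0 and 8 above, and their median was -1.83 in glp-1 and 0.13 in wild type. Despite that median, 36 of the 100 col- genes fell in wild type and 8 rose. The filaments, by contrast, fell further in wild type: the interaction was above 0 in 7 of 11 and below in 2. ifc-2 was 0.0 in glp-1 and -1.34 in wild type (interaction 1.34, adjusted p = 4.14e-05), and ifa-4 was 0.96 in glp-1 and -1.6 in wild type (interaction 2.56). For ifc-1 and lmn-1 the interaction was below 0 (-1.53 and -0.34). Body wall muscle genes had 17 interactions above 0 of 28 and none below. All 6 vitellogenins had one above 0, with sums of 51019.8, 48970.4 and 46225 FPKM in glp-1 D6 libraries and 46528, 47634 and 44315 FPKM in glp-1 D1 libraries. C-type lectin, UDP-glucuronosyltransferase and transthyretin-related genes had interactions above 0 in 41 of 88, 31 of 52 and 28 of 48, and below in 6, 3 and 4. The vacuolar ATPase genes differed little: 2 were above and 2 below of 19, with a median of -0.53 in glp-1 and -0.53 in wild type. Wild-type libraries also contain a germline, whose share of the RNA enters their change with age. Its part in these interactions was not tested.

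**Figure D5:**
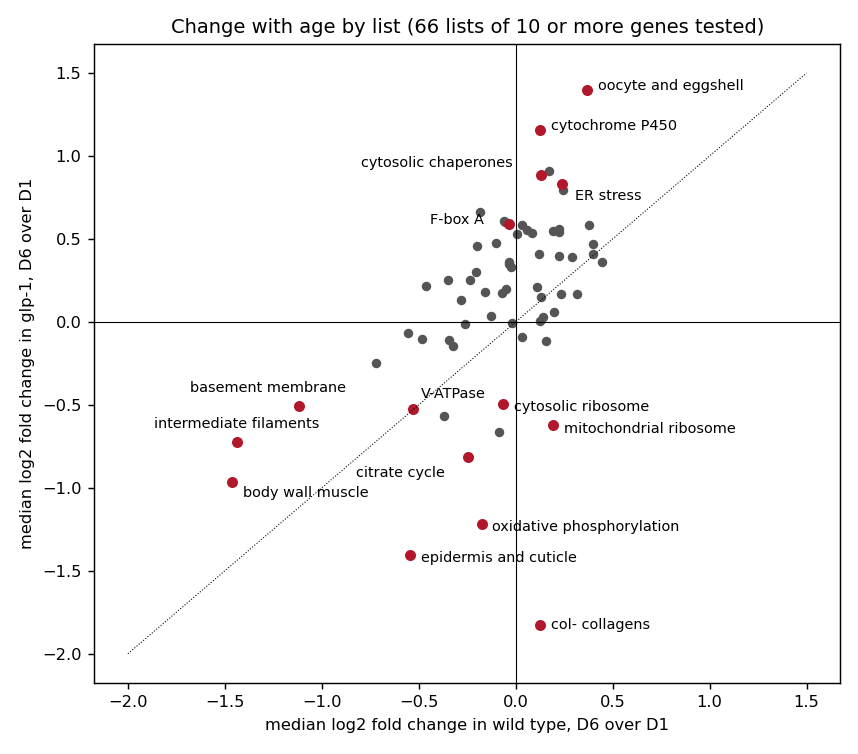
Median log2 fold change, D6 over D1, in glp-1 (vertical axis) against that in wild type (horizontal axis) for 66 lists of at least 10 genes tested, with the dotted line marking equal medians and red points those named. The median was greater in glp-1 for 50 of the 66 lists; oxidative phosphorylation, both ribosomes and col- collagens lie below the line, and cytochrome P450, chaperone and F-box A genes above it.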

How the data were processed

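RNA of whole worms was sequenced in 12 libraries, 3 per group; per the labels' protocols, RNA was taken in TRIzol, and NEBNext Ultra libraries were read on a NovaSeq. The authors deposited a table of FPKM per gene for each library. The build WBcel235, the aligner HISAT2 2.0.4 and DESeq2 1.6.3 are named per the submitters' processing notes. The program behind the FPKM, its annotation and its strand setting remain not given in the sources used here. Depth was estimated from the FPKM worth of 1 fragment in genes with 1 annotated transcript and is approximate. Genes were matched by name, 20257 in all, and coordinates come from the Ensembl annotation of the same build, which held 19349 of them.

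Genes reaching 1 FPKM in 3 or more of the 6 glp-1 libraries were tested on log2(FPKM + 1) with limma 3.58.1 (R 4.3.3; trend and robust variance; 4 residual degrees of freedom), D6 minus D1, adjusted by Benjamini-Hochberg over 11599 genes. Since FPKM carry no counts, no count model was used. The interaction and the wild-type change came from a fit of all 12 libraries (8 residual degrees of freedom) on the same genes. The muscle and neuron scaling made the median log2 level of the muscle and neuronal lists equal in all libraries. On simulated data for these 11599 genes 67, 67 and 66 genes were changed 1.5-fold, 2-fold and 4-fold. The age test called 61.2%, 86.6% and 98.5% of them, with 2.38% of its calls false. The changed genes were not weakly expressed, and noise was drawn separately for each gene and library. In the data 60.4% of genes were called and some libraries deviated in many genes at once, so these rates need not hold for the calls made here. The members and lists were chosen with earlier results of these data known. Lists are described by counts and medians, with no test of a list.

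Genes were named by rule: the 15 largest rises and falls with a symbol, a mean of at least 1 FPKM in both groups and no overlap of groups were eligible, with 5 of each having only a sequence name, up to 3 rises and 3 falls per list or family, every filament gene, 5 interactions in each direction, glp-1, the 5 germline-dependent genes highest at D6 and the 5 called genes most uneven at D6; a part of these is printed. Genes named for unevenness at D6 or as the top of a library were chosen after their values were seen. Alternatives were other scalings (median ratio, muscle and neuron, quantile), pseudocount, filter, fit, replicate block and each library left out. No sequence was printed, since no genome sequence was used here.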

Additional observations from a re-analysis of the deposited data

Results flagged for a closer look

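Groups of 3 libraries are too small to test for a stray value. The results below differ between glp-1 and wild-type worms in their change with age, by the test of the interaction itself (limma, adjusted over 11599 genes), which was called for 5561 genes. Only called genes with a mean of at least 1 FPKM in both glp-1 and both wild-type groups, and no overlap between the glp-1 groups, were ranked. Among them the largest positive interactions on the log2 scale were those of msp-31 (4.97), R09E12.9 (4.81), C50F7.5 (3.79), lys-10 (3.68) and ugt-25 (3.63), and the largest negative those of C32H11.4 (-4.43), K10C2.8 (-4.40), col-139 (-4.38), col-12 (-4.29) and gst-24 (-3.64). msp-31 is 1 of many near-identical major sperm protein genes, with 0.85 in glp-1 and -4.12 in wild type; its rise in glp-1 was not called with the median ratio scaling. lys-10 had 5.26 in glp-1 and 1.58 in wild type, and ugt-25 had 4.69 in glp-1 and 1.06 in wild type. col-139 had -6.6 in glp-1 and -2.22 in wild type, col-12 had -4.43 and -0.15, and gst-24 had -2.14 and 1.5. The causes of these differences were not tested.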

How the results depend on the processing

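Of 11599 genes 7000 were called, and the count was 6917 with a pseudocount of 0.1, 7210 without a filter, 5856 with a filter of 5 FPKM, 7172 in the 12-library fit, 6945 without trend and robust variance and 6889 without the germline-dependent genes. With any 1 library left out it was 6269 to 6534 (4389 to 4613 higher, 1841 to 2056 lower). Scaling moved the split: 3179 genes were higher with the median ratio and 3181 with the quantile scaling, against 4938, and 1154 were lower with the muscle and neuron scaling, against 2062. With the replicate block 6655 genes were called (4655 higher, 2000 lower) and 5103 interactions, against 5561. Deviations of D6 and D1 libraries of the same number correlated at -0.034, -0.013 and 0.149, within the -0.172 to 0.182 of libraries of different number. No pairing by number was seen in these values, but 3 libraries a group cannot settle whether the numbers mark a shared culture or batch. The interaction count was 5130 with a pseudocount of 0.1, 5545 and 4334 under the median ratio and the muscle and neuron scalings, 4657 with a filter of 5 FPKM and 5093 to 5362 with a library left out. With germline-dependent genes defined under 10% of wild type, their median share was 2.72%, 1.37% and 2.63% in D6 libraries and 1.39%, 1.4% and 1.55% in D1 libraries, and under 1% it was 1.21%, 0.128% and 0.804% in D6 libraries and 0.054%, 0 and 0.0106% in D1 libraries; D6 replicate 2 was lowest among the D6 libraries each time, and fell below D1 under the 10% rule. Small list counts moved by over 1.5 times without 1 library. Among these were 7 cell cycle rises (12 without D6 replicate 2, 4 without D1 replicate 1), 3 nuclear envelope rises (5 without D6 replicate 2), 5 acyl-CoA synthetase falls (2 without D1 replicate 1) and 10 potassium channel rises (6 without D6 replicate 2). Counts of 3 or fewer genes also moved: Patched-related falls from 3 to 1 without D1 replicate 1 or D6 replicate 1, F-box A falls from 2 to 1 without D1 replicate 1 or 3, MATH and BATH falls from 2 to 1 without D1 replicate 1 or 2, gonad and sheath falls from 2 to 1 without D1 replicate 2, D1 replicate 3 or D6 replicate 3, and the single fall in insulin and TOR signalling to 0 without D1 replicate 1 or 2 or D6 replicate 2 or 3. The single mitochondrial ribosomal rise was lost without D1 replicate 2 or 3 or D6 replicate 1 or 2. A single call became 2 for vitellogenin rises without D6 replicate 3, FMRFamide-like peptide falls without D6 replicate 1 and longevity regulator falls without D1 replicate 3. Signs turned under the muscle and neuron scaling for tln-1 (0.11), pbs-1 (0.044), pas-5 (0.14), mars-1 (0.11), fars-1 (0.17), npp-5 (0.0137), ptr-21 (0.14), skr-18 (0.12), acs-1 (0.040), acs-19 (0.14) and lys-1 (0.12), none of them called there. The cause was not tested. Depth limits genes near 1 FPKM, and 3 libraries a group limit the precision of every difference.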
